A study of Mus musculus with 11 samples.

Results

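The mitochondrial ribosomal protein genes are the nuclear genes named Mrpl, for proteins first assigned to the large subunit of the mitochondrial ribosome, and Mrps, for those first assigned to its small subunit. They were taken as every gene on the array whose symbol begins with either prefix and whose probe passed the scanner software's test against background in 5 or more of the 22 channels, with the brightest probe kept where a gene had several. Of 78 such genes on the array, 77 passed, 48 named Mrpl and 29 named Mrps, among 26082 features in all. Mrpl21 did not pass, being well above background in 0 of 22 channels, while each of the 77 was well above background in all 22. They lie on 17 chromosomes, with none on X, and chromosome 11 holds the most, 11 genes.

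The mice compared were of the strain background C57/Bl6J and 5 to 7 months old, and RNA came from the cortex of the right hemisphere. TC mice (n = 6) carried GFA2-tTa/TetO-VP16-CREB and had a cryolesion. WTC mice (n = 5) were wild type with the same lesion. T mice (n = 5) carried the transgenes without a lesion, and WT mice (n = 6) were intact wild type. In the transgenic mice the astrocyte promoter GFA2 drives tTA, which switches on VP16-CREB, an always active form of the transcription factor CREB, so the transgene acts in astrocytes while the RNA came from all cells of the tissue. The lesion was made by dry ice applied to the brain surface for 30 s, 3 days before the cortex was collected. Each mouse was hybridised once, on 1 of 11 Agilent 2-colour arrays, labelled A to F and I to M.

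The mitochondrial ribosome makes the few proteins that mitochondrial DNA encodes, all of them subunits of the respiratory chain and ATP synthase. Its ribosomal RNAs come from mitochondrial DNA, but its proteins are encoded in the nucleus, made in the cytosol and imported. Many have bacterial counterparts and others are found only in mitochondria. Neurons depend on oxidative phosphorylation, so the cortex uses this machinery heavily. Some names no longer fit the place of the protein: from structures of mammalian mitochondrial ribosomes, the proteins of Mrps18a and Mrps30 sit in the large subunit, and that of Mrps36 is now known as a part of the 2-oxoglutarate dehydrogenase complex.

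The share of spots above background by that test ran from 56.6% to 65.3% over the channels, and the small number of arrays, 11, sets the precision. For arrays I, J and K the label of the Cy3 channel names another group than the title: T for the TC mice of arrays I and K, and TC for the T mouse of array J. Groups were taken from the titles. The TC mouse of array I, one of those labelled T, was unlike the rest of its group. Its 12 reactive astrocyte genes averaged 9.77, with the remaining TC mice at 10.90 to 12.18 and T mice at 9.04 to 9.29. Its 10 excitatory neuron genes averaged 10.76, with the remaining TC mice at 12.35 to 13.16 and T mice at 12.87 to 13.44. The mouse thus lay between the groups for the former list and below both for the latter. Its microglia genes (11.36, with T mice at 11.55 to 11.75), macrophage and neutrophil genes (7.18, with T mice at 6.92 to 7.97) and cell cycle genes (7.70, with T mice at 7.54 to 8.14) were at or below the levels of T mice, while its homeostatic astrocyte genes (13.07, with T mice at 12.51 to 12.68) were at the level of the lesioned mice. For the same microglia, macrophage and neutrophil, and cell cycle genes, the TC mouse of array K lay above all T mice (13.29, 10.49 and 10.73) and the T mouse of array J at the levels of the other T mice (11.74, 6.92 and 7.54). Which group the mouse of array I belongs to was not settled, so several values of TC mice below are also given without array I or with the Cy3 labels. With the Cy3 labels as groups, the ratio fit called 0 of the 77 in each comparison, and their medians were -0.05 in WTC minus WT, 0.12 in TC minus T, 0.03 in T minus WT and 0.18 in TC minus WTC. Under those labels arrays I and J each hold 2 mice of the same group and array K pairs WTC with T. No array then pairs TC with T, so TC minus T is reached only through other groups. Marker genes of choroid plexus ranged from 7.37 to 12.68 in TC, 9.06 to 12.66 in WTC, 8.17 to 9.82 in T and 7.75 to 12.59 in WT mice, and of striatum from 9.16 to 11.66, 9.07 to 12.32, 9.29 to 12.04 and 9.57 to 12.93. Their part in the results was not tested. All levels and ratios below are on the log2 scale, and a level is the brightness of 1 probe, so it compares mice and not genes.

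Members were read in 2 limma fits across all features. The ratio fit uses only the log2 ratio within each array. The separate-channel fit also uses the brightness of each channel between arrays, and was repeated with slide as a term, since arrays A to F were on 1 slide and arrays I to M on another. Adjusted p-values are Benjamini-Hochberg values over all features of a fit, 26082 in the ratio fit and 25964 in the separate-channel fit, and a gene was called at an adjusted p under 0.05. Errors of log2 ratios are standard errors (SE).

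Promoter windows, 250 bases before to 50 after a start site, were listed by RefSeq (GRCm38.p6) for 68 of the 77 genes. A script looked for 5 motifs on both strands. The consensus motif of NRF1, a factor known for nuclear genes of mitochondrial function, was found in 13 of the 68 genes (19.1%), against 5.19% of all 27025 genes with a window. The ETS-family motif CCGGAAG was found in 25 of the 68 (36.8%, against 9.93%) and the YY1 motif AAGATGGCG in 8 (11.8%, against 1.64%). The CREB-binding motif TGACGTCA was found in 2 of the 68, Mrpl16 and Mrpl49 (2.94%, against 2.03%). Its shorter form TGACGT, which the longer one contains on each strand, was found in 8 (11.8%, against 8.37%). A match is a stretch of letters and does not show that a factor binds there.

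Of the genes the values below turn on, Mrpl33 lies at chr5:31613951-31622644, Mrpl52 at chr14:54426909-54429750, Mrps12 at chr7:28739641-28741821, Mrps18b at chr17:35910380-35916440, Mrpl19 at chr6:81957826-81965949 and Mrpl15 at chr1:4773198-4785750 (GRCm38.p6). Of the promoters, 6 are shown as the 160 bases before the start site, with motif matches on either strand in capitals. Mrps6 and Mrpl52 are shown because their levels were higher after the lesion, Mrps18a and Mrps27 because theirs were lower, and Mrpl16 and Mrpl49 because they hold the CREB motif and the transgene is a form of CREB. They lie at chr16:92058176-92058335 on the plus strand for Mrps6, chr14:54426749-54426908 on the plus strand for Mrpl52, chr17:46110844-46111003 on the plus strand for Mrps18a, chr13:99344626-99344785 on the plus strand for Mrps27, chr19:11770255-11770414 on the plus strand for Mrpl16 and chr19:6057756-6057915 on the minus strand for Mrpl49. The capitals mark ETS matches in Mrpl52, Mrps18a and Mrps27 and CREB matches in Mrpl16 and Mrpl49. The YY1 matches of Mrps18a and Mrps27 and a second ETS match of Mrpl52 begin after the start site and are not in these stretches. The stretch of Mrps6 holds none of the 5 motifs.
Mrps6: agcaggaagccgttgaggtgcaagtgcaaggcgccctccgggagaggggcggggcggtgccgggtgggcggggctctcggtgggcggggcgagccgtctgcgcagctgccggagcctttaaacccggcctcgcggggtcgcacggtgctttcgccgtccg
Mrpl52: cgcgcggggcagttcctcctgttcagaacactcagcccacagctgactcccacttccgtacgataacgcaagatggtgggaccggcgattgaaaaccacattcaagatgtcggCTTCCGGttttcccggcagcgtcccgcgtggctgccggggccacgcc
Mrps18a: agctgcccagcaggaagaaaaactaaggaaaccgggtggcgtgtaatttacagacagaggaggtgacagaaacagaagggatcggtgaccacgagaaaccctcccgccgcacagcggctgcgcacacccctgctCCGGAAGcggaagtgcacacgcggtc
Mrps27: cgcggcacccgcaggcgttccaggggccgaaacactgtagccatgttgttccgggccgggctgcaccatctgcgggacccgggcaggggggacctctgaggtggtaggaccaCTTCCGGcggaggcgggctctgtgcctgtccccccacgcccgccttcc
Mrpl16: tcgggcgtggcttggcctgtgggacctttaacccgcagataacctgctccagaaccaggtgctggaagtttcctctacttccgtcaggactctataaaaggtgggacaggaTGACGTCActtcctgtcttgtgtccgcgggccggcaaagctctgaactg
Mrpl49: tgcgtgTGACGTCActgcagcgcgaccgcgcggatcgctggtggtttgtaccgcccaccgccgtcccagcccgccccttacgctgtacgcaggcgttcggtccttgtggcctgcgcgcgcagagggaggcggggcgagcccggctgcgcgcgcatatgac

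The first comparison asked what the lesion changed in wild-type cortex (WTC minus WT). In the separate-channel fit 5 rose and 11 fell, so 6.49% of the 77 rose and 14.3% fell, against 14.3% and 12.2% of all features. The share of risers was thus below that of all features and the share of fallers close to it. With the slide term 4 rose and 3 fell, against 9.23% and 4% of all features, and these 7 are all among the first 16. In the ratio fit 0 of the 77 passed (smallest adjusted p = 0.115), where 0.023% of all features did. At an unadjusted p under 0.05 that fit had 4 members up and 7 down, against 12.7% and 6.93% of all features. The median log2 ratio of the 77 was -0.07 in the ratio fit, where that of all features was 0.00, and -0.15 in the separate-channel fit, against -0.03. In the ratio fit 22 of 77 ratios lay above 0, against 50.6% of all features. With arrays centred on their median in place of loess, 4 lay above 0 and the median was -0.30. No share of all features is given for that centring, so this count has no background. The number of members called in the separate-channel fit ran from 7 without array B to 26 without array A, where 12.3% and 30.4% of all features were called. In the ratio fit it was 14 with array weights, 3 without array I and 2 without array K, where 20.5%, 5.51% and 6.07% of all features were called.

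**Figure D1:**
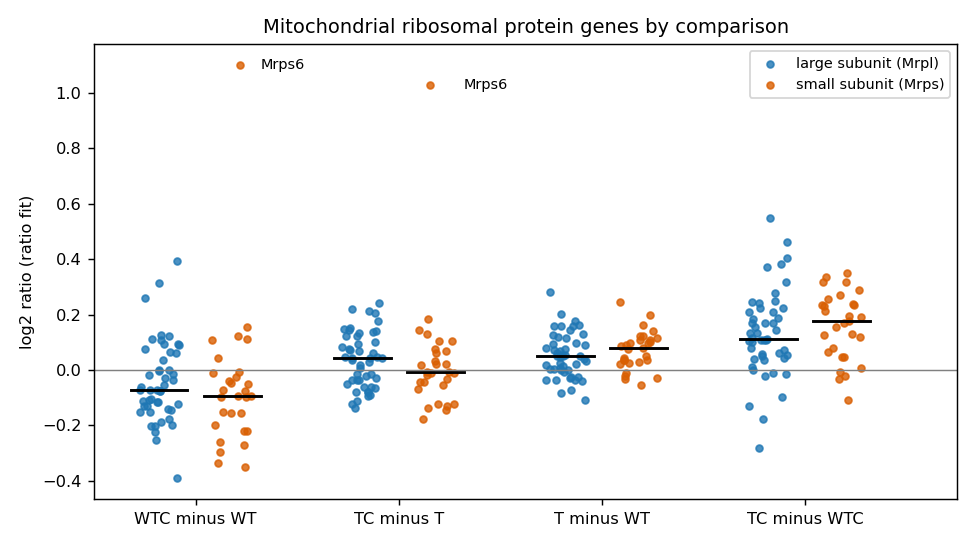
Log2 ratio of each of the 77 genes in the ratio fit (vertical axis) for 4 comparisons (horizontal axis), genes named Mrpl left and Mrps right, with a black bar at the median of each. Mrps6 stands far above the other genes at 1.10 in WTC minus WT and 1.03 in TC minus T, and most points of TC minus WTC lie above 0.

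Mrps6, whose protein has a bacterial counterpart in the small subunit, gave the highest ratio of the 77. Its level was 13.32, 14.19, 13.51, 14.27 and 14.32 in the WTC mice, against 12.43, 12.61 and 12.75 (lowest, median and highest) in the WT mice. Every WTC mouse was above every WT mouse, and 2 of the 5 WTC mice, those of arrays A and K, lay well below the other 3. The mean was 13.92 ± 0.47 in WTC mice (SD, n = 5) and 12.60 ± 0.12 in WT mice (SD, n = 6). It rose by 1.26 ± 0.22 in the separate-channel fit (2.40-fold, adjusted p = 0.000734) and gave 1.10 ± 0.32 in the ratio fit (adjusted p = 0.128). Within slide 1, a ratio fit of arrays A to F alone gave 1.10 (adjusted p = 0.0495). The authors' deposited table gives Mrps6 1.37 with an adjusted p of 0.000195.

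Mrps6 lies at chr16:92058336-92112227 (GRCm38.p6) and overlaps Slc5a3 at chr16:92058322-92087473, the gene of the sodium-coupled myo-inositol transporter. The Slc5a3 probe read 9.08, 9.47, 8.96, 9.29 and 9.38 in the WTC mice, against 8.27, 8.59 and 8.62 (lowest, median and highest) in the WT mice. Its groups did not overlap either, and it rose by 0.75 ± 0.14 in the separate-channel fit (1.68-fold, adjusted p = 0.00142). In the ratio fit it gave 0.78 ± 0.21 (adjusted p = 0.119). Whether either probe also reads transcripts of the other gene was not tested.

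The other 4 genes that rose in the separate-channel fit moved by far less. Mrpl52, found only in mitochondria and in the large subunit, was at 13.73, 13.84, 13.74, 13.93 and 13.75 in the WTC mice, against 13.28, 13.42 and 13.49 in the WT mice, again with no overlap. It rose by 0.37 ± 0.07 (1.29-fold, adjusted p = 0.00156). Mrpl33, a small large-subunit protein with a bacterial counterpart, was at 14.10, 14.60, 14.23, 14.53 and 14.60 in the WTC mice, against 13.57, 13.88 and 14.02 in the WT mice, and rose by 0.52 ± 0.12 (1.43-fold, adjusted p = 0.00507). Mrpl24, another large-subunit protein of bacterial origin, rose by 0.31 ± 0.07 (adjusted p = 0.00437), with WTC mice at 12.69 to 13.11 and WT mice at 12.49 to 12.66. Mrps25, a small-subunit protein found only in mitochondria, rose by 0.22 ± 0.08 (adjusted p = 0.0386) and was not called with the slide term (0.18, adjusted p = 0.14). Its WTC mice, 12.44 to 12.84, overlapped the WT mice at 12.37 to 12.57, and its second probe gave -0.13 where the first gave 0.15 in the ratio fit.

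Among the genes that fell, 3 kept an adjusted p under 0.05 with the slide term. Mrps12, whose bacterial counterpart sits at the decoding site and bears on the accuracy of translation, was at 13.89, 13.56, 13.28, 13.74 and 13.48 in the WTC mice, against 14.11, 14.12 and 14.33 in the WT mice. All WTC mice were below all WT mice, and it fell by 0.50 ± 0.11 (1.42-fold, adjusted p = 0.00272). Mrps18b, one of 3 paralogues of a single bacterial small-subunit protein, was at 12.64, 12.29, 12.40, 12.73 and 12.25 in the WTC mice, against 12.77, 12.89 and 12.96 in the WT mice, again with no overlap, and fell by 0.39 ± 0.08 (1.31-fold, adjusted p = 0.00192). Mrpl19, of the large subunit, was at 10.11, 9.76, 9.62, 9.92 and 9.16 in the WTC mice, against 10.11, 10.31 and 10.43 in the WT mice. Its highest WTC mouse met its lowest WT mouse, and it fell by 0.52 ± 0.12 (1.44-fold, adjusted p = 0.00461).

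The other 8 genes that fell lost their calls with the slide term. They were the small-subunit genes Mrps18a (-0.38 ± 0.11, adjusted p = 0.0188), Mrps9 (-0.36 ± 0.11, adjusted p = 0.0194), Mrps27 (-0.40 ± 0.12, adjusted p = 0.0203), Mrps5 (-0.51 ± 0.16, adjusted p = 0.0296) and Mrps2 (-0.34 ± 0.11, adjusted p = 0.0307), going by their symbols, and the large-subunit genes Mrpl38, Mrpl46 and Mrpl18. With the slide term their ratios ran from -0.37 to -0.24. The paralogues of Mrps18b differed in their values. Mrps18a was at 12.96, 12.53, 12.35, 12.65 and 11.99 in the WTC mice, against 12.80, 12.93 and 13.01 in the WT mice, so that its highest WTC mouse lay within the WT mice. Mrps18c gave -0.04 (adjusted p = 0.765), with WTC mice at 12.01 to 12.44 and WT mice at 12.12 to 12.44. Whether the paralogues differ from each other was not tested.

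By mouse, 4 of the 77 genes (Mrps6, Mrpl24, Mrpl33 and Mrpl52) were higher in every WTC mouse than in every WT mouse, and 2 (Mrps12 and Mrps18b) were lower in every WTC mouse. Over all features 9.1% and 7.22% did so. Of the other genes named in every comparison, 4 did not pass. Mrpl12, of the flexible stalk that recruits translation factors, gave -0.13 (adjusted p = 0.157), and Mrpl11, at the base of that stalk, gave -0.16 (adjusted p = 0.0921). Mrps30 gave -0.27 (adjusted p = 0.0796), and Mrpl44, a large-subunit protein related to a ribonuclease, gave -0.28 (adjusted p = 0.0663), all in the separate-channel fit.

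**Figure D2:**
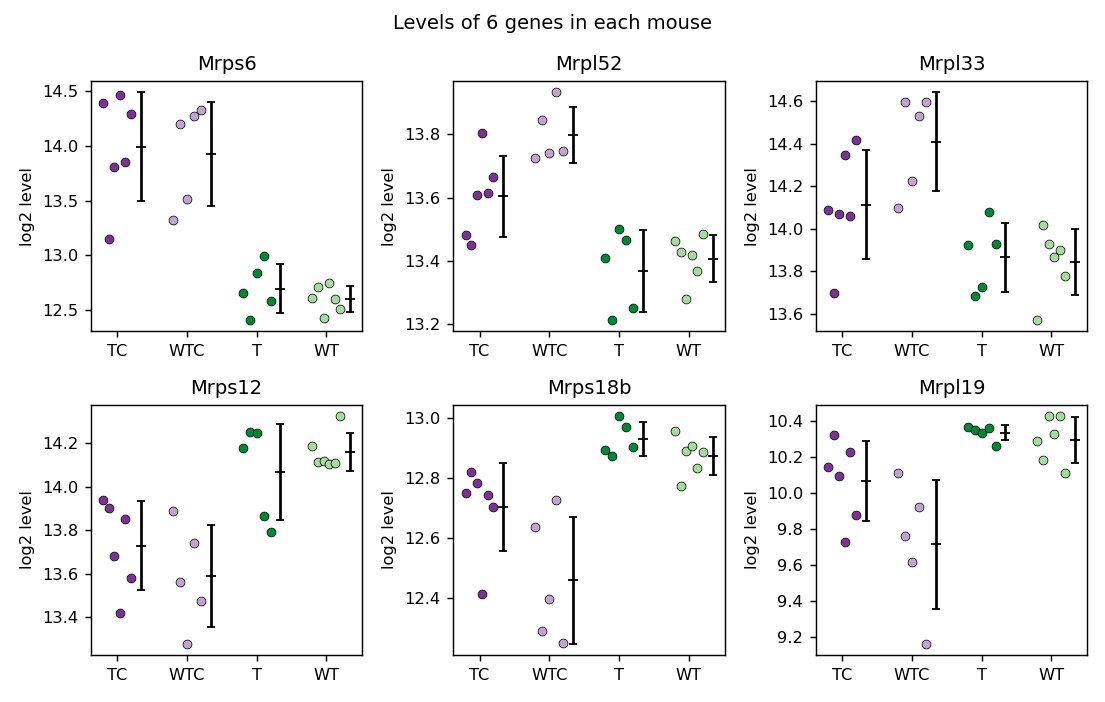
Log2 level of 6 genes in each mouse (points) by group, with the mean and SD of the group as a bar. Mrps6, Mrpl52 and Mrpl33 lie higher in the WTC than in the WT mice and Mrps12, Mrps18b and Mrpl19 lower, and the TC mouse with the lowest Mrps6 level, 13.15, is that of array I.

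In a piece of tissue, fewer cells of a type and less RNA per cell cannot be told apart, and levels of marker genes of several cell types moved with the lesion. The mean level of 12 reactive astrocyte genes was 11.27 to 12.43 in WTC mice and 8.51 to 9.11 in WT mice, and of 10 microglia genes 12.63 to 13.44 in WTC mice and 11.29 to 11.91 in WT mice. Of the 10 macrophage and neutrophil genes listed 9 were detected, at 9.10 to 10.08 in WTC mice and 6.63 to 7.15 in WT mice, and the 10 cell cycle genes were at 9.62 to 10.82 in WTC mice and 7.40 to 8.01 in WT mice. The 10 homeostatic astrocyte genes were at 13.07 to 13.19 in WTC mice and 12.56 to 12.77 in WT mice, again without overlap. The 10 excitatory neuron genes were at 12.56 to 13.28 in WTC mice and 12.18 to 13.41 in WT mice. The 10 oligodendrocyte genes were at 13.58 to 14.18 in WTC mice and 13.46 to 13.71 in WT mice. For the 8 endothelial genes the ranges were 10.01 to 11.37 in WTC mice and 10.14 to 10.69 in WT mice. All genes of these lists but Cd68 were detected. The part of these shifts in the results on ribosomal protein genes was not tested.

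The second comparison asked what the lesion changed in transgenic cortex (TC minus T). In the separate-channel fit 3 of the 77 rose and 0 fell, against 4.7% and 2.65% of all features, which for the rise is 3.9% of the genes. With the slide term 2 rose and 0 fell, against 2.64% and 0.797% of all features. The ratio fit called 0 of 77 (smallest adjusted p = 0.309) and 0% of all features. At an unadjusted p under 0.05 it had 2 genes up and 0 down, against 6.94% and 4.98% of all features. The median of the 77 was 0.02 in the ratio fit, with 42 of 77 above 0 against 51.3% of all features. It was -0.06 in the separate-channel fit, and -0.10 there without array I, so that its sign depended on the fit. In the separate-channel fit 1 member was called without array E or J, where 1.58% and 0.685% of all features were called, and 5 without array A or I, where 10.9% and 10.5% were. The 5 without array I were 4 up and 1 down. With the Cy3 labels, under which no array pairs TC with T, the ratio fit had 62 of 77 above 0.

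Mrps6 was again the highest. Its level ran from 13.15 to 14.46, with a median of 14.07, in the TC mice, against 12.66, 12.41, 12.84, 12.99 and 12.58 in the T mice. All TC mice were above all T mice, by the least in the TC mouse of array I. It rose by 1.21 ± 0.22 in the separate-channel fit (2.32-fold, adjusted p = 0.00375) and by 1.52 without array I (adjusted p = 9.87e-05). In the ratio fit it gave 1.03 ± 0.31 (2.04-fold, adjusted p = 0.309), 1.46 without array I (adjusted p = 0.0841) and 0.64 with the Cy3 labels (adjusted p = 1). Within slide 2 the ratio fit gave 0.69 (adjusted p = 0.823). Within slide 1 it gave 1.99, reached only through WT mice and resting on 1 TC mouse, that of array C. The authors' deposited table gives Mrps6 1.16 with an adjusted p of 0.00806, and Mrps6 is the 1 member called in that table for TC minus T. Slc5a3 rose as well, by 0.67 ± 0.14 (adjusted p = 0.01), with TC mice at 8.87 to 9.74 and T mice at 8.74, 8.89, 8.86, 8.81 and 8.42, so that the lowest TC mouse lay just below the highest T mouse. That TC mouse was the one of array I, and the remaining TC mice were at 9.31 to 9.74.

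Mrpl17, a large-subunit protein whose bacterial counterpart lies near the exit of the peptide tunnel, ran from 11.44 to 11.61 in the TC mice, with a median of 11.54, against 11.43, 11.20, 11.36, 11.29 and 11.20 in the T mice. The groups just failed to meet, and it rose by 0.24 ± 0.06 (1.18-fold, adjusted p = 0.0229). With the Cy3 labels its ratio in the ratio fit was 0.06 and that of Mrpl52 0.07, against 0.24 and 0.21 by the titles. Mrpl52 ran from 13.45 to 13.80 in the TC mice, against 13.41, 13.21, 13.50, 13.46 and 13.25 in the T mice, which overlapped. It rose by 0.23 ± 0.07 (adjusted p = 0.0491) and was not called with the slide term (0.22, adjusted p = 0.105). Without array I the separate-channel fit gave it 0.31 (adjusted p = 0.0114). Mrpl13, another large-subunit protein, gave in the ratio fit 0.18 ± 0.08 (adjusted p = 0.443). Mrpl34 was at 0.22 (adjusted p = 0.486), and Mrps18b, Mrps33 and Mrpl3 were lowest at -0.18, -0.15 and -0.14.

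Of the 77 genes 2 (Mrps6 and Mrpl17) were higher in every TC mouse than in every T mouse and 2 (Mrps18b and Mrps30) lower, where 2.09% and 2.81% of all features were. Mrps18b was at 12.42 to 12.82 in TC mice and 12.87 to 13.01 in T mice and gave -0.21 (adjusted p = 0.0945) in the separate-channel fit. Mrps30 was at 11.17 to 11.67 in TC mice and 11.69 to 11.76 in T mice and gave -0.20 (adjusted p = 0.275). Mrps12 was at 13.42 to 13.94 in TC mice, against 14.18, 14.25, 14.25, 13.87 and 13.79 in T mice, and gave -0.28 (adjusted p = 0.103). The T mice of arrays I and J, on slide 2, lay below those of slide 1 for this gene and within the TC mice. Marker levels differed here too: the reactive astrocyte list was at 9.77 to 12.18 in TC mice and 9.04 to 9.29 in T mice, and the homeostatic astrocyte list at 12.72 to 13.12 in TC mice and 12.51 to 12.68 in T mice. Without the TC mouse of array I, microglia genes were at 12.53 to 13.42 in TC mice and 11.55 to 11.75 in T mice, macrophage and neutrophil genes at 8.24 to 10.49 in TC mice and 6.92 to 7.97 in T mice, and cell cycle genes at 9.17 to 10.73 in TC mice and 7.54 to 8.14 in T mice. Their part in the results was not tested.

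The next comparison asked what the transgene changed without a lesion (T minus WT). No gene of the 77 was called in either fit, where 0% of all features were called in the ratio fit and 0% in the separate-channel fit. At an unadjusted p under 0.05 the ratio fit had 2 genes up and 0 down, against 0.993% and 1.92% of all features, and the separate-channel fit 0 up and 0 down, against 0.932% and 1.21%. The median of the 77 was 0.05 in both fits, against 0.00 for all features, and 61 of 77 lay above 0, against 49.2%. Mrpl1, a large-subunit protein with a bacterial counterpart, gave the highest ratio at 0.28 ± 0.11 (adjusted p = 0.982), with T mice at 8.39, 8.20, 8.48, 8.35 and 8.27 and WT mice at 7.98 to 8.26. Mrpl22, whose bacterial counterpart lines the peptide tunnel, gave 0.18 ± 0.08, Mrps11 0.20 ± 0.11 and Mrpl36 0.13 ± 0.07, each with an adjusted p of 0.982. The Mrps6 ratio was 0.24, with T mice at 12.41 to 12.99 and WT mice at 12.43 to 12.75, and that of Mrpl15 was 0.20. The lowest ratios were those of Mrpl23 (-0.11), Mrpl48 (-0.08) and Mrpl54 (-0.07). No gene of the 77 separated all T from all WT mice, as 0.588% of all features did.

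A further comparison asked what the transgene changed in lesioned cortex (TC minus WTC). Most of the 77 ratios were above 0, but none passed the test. The ratio fit called 0 of 77 and 0% of all features, with a smallest adjusted p of 0.131. The separate-channel fit called 0 of 77, where 0.143% of all features were called, with a smallest adjusted p of 0.17. At an unadjusted p under 0.05 the ratio fit had 23 genes up and 1 down, 29.9% and 1.3% of the genes, against 6.12% and 8.68% of all features. The separate-channel fit had 24 up and 3 down, against 7.34% and 9.34% of all features, and 32 up and 3 down with the slide term, against 9.93% and 11.2%. The median of the 77 was 0.13 in the ratio fit, against -0.02 for all features, and 66 of the 77 ratios lay above 0, against 44.4%. Without array I the median was again 0.13, with 66 of 77 above 0. With median centring, for which no share of all features is given, 76 of 77 lay above 0 and the median was 0.39. With array weights the ratio fit called 5 of the 77, all up, where 2.32% of all features were called, and without array K the separate-channel fit called 3, or 3.9%, all up, where 3.76% were. No gene separated all TC from all WTC mice, as 0.458% of all features did. Marker lists overlapped between the groups, with lower means in TC mice. Means in TC and WTC mice were 11.31 and 11.73 (reactive astrocyte), 12.72 and 13.16 (microglia) and 8.79 and 9.47 (macrophage and neutrophil). They were 9.465 and 10.23 (cell cycle), 12.96 and 13.12 (homeostatic astrocyte) and 12.49 and 12.98 (excitatory neuron). The TC means include array I. The part of these levels in the results was not tested.

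Mrpl15, a large-subunit protein with a bacterial counterpart, had the smallest p of the ratio fit. Its level ran from 10.91 to 11.83 in the TC mice, with a median of 11.64, against 11.67, 11.18, 10.63, 11.30 and 10.24 in the WTC mice. The groups overlapped, and the lowest value of each came from slide 2, the TC mouse of array K and the WTC mouse of array M. It gave 0.55 ± 0.11 (1.46-fold, adjusted p = 0.131), and 0.39 without array M, and its second probe gave 0.05. Mrps27, a small-subunit protein of the mitochondria-specific kind, gave 0.34 ± 0.08 (adjusted p = 0.15), Mrpl28 0.37 ± 0.09 (adjusted p = 0.153) and Mrpl37, found only in mitochondria, 0.40 ± 0.10 (adjusted p = 0.16). Mrpl46, also found only in mitochondria, gave 0.46 ± 0.12 (adjusted p = 0.178), with TC mice at 10.16 to 11.33 and WTC mice at 10.82, 10.46, 10.11, 10.59 and 9.51.

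The lowest ratios of TC minus WTC were those of Mrpl33 (-0.28 ± 0.13, adjusted p = 0.36), Mrpl23 (-0.18) and Mrpl52 (-0.13), and Mrpl23 is the 1 gene down at an unadjusted p under 0.05. Mrpl33 ran from 13.70 to 14.42 in the TC mice, with a median of 14.08, against 14.10 to 14.60 in the WTC mice. Its lowest TC mouse was that of array I, and the remaining TC mice were at 14.06 to 14.42. Mrps6 gave 0.17 ± 0.28 (adjusted p = 0.807), with TC mice at 13.15 to 14.46 and WTC mice at 13.32 to 14.32. Mrpl11 gave -0.01 and Mrps18c 0.05, while Mrps18a gave 0.27 ± 0.08 (adjusted p = 0.197), Mrps18b 0.20 ± 0.08 (adjusted p = 0.325) and Mrps12 0.18 ± 0.08 (adjusted p = 0.333).

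The difference between the lesion effects, TC minus T less WTC minus WT, was tested directly. It was called for 0 of 77 genes and 0% of all features in the ratio fit, with a smallest adjusted p of 0.806, and for 0 of 77 and 0% of features in the separate-channel fit. At an unadjusted p under 0.05 the ratio fit had 4 genes up and 0 down, against 2.93% and 2.45% of all features, and the separate-channel fit 0 up and 0 down, against 2.59% and 3.57%. The 4 were Mrpl18 (0.30 ± 0.11), Mrps27 (0.25 ± 0.10), Mrpl46 (0.39 ± 0.16) and Mrpl15 (0.34 ± 0.15). The second probe of Mrpl15 gave 0.41 in TC minus T and 0.64 in WTC minus WT. Its difference was thus below 0, opposite in sign to that of the probe in use. The median was 0.09, with 59 of 77 above 0, against 45.4% of all features. With the Cy3 labels it was 0.15, with 63 of 77 above 0, and without array I it was 0.08, with 57 above 0. Median centring gave 0.29, with 76 of 77 above 0, again with no share of all features given. The lowest values were those of Mrpl33 (-0.33), Mrps25 (-0.14) and Mrps14 (-0.13). This difference and the comparisons above share mice, and the values of a gene in them are not independent.

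**Figure D3:**
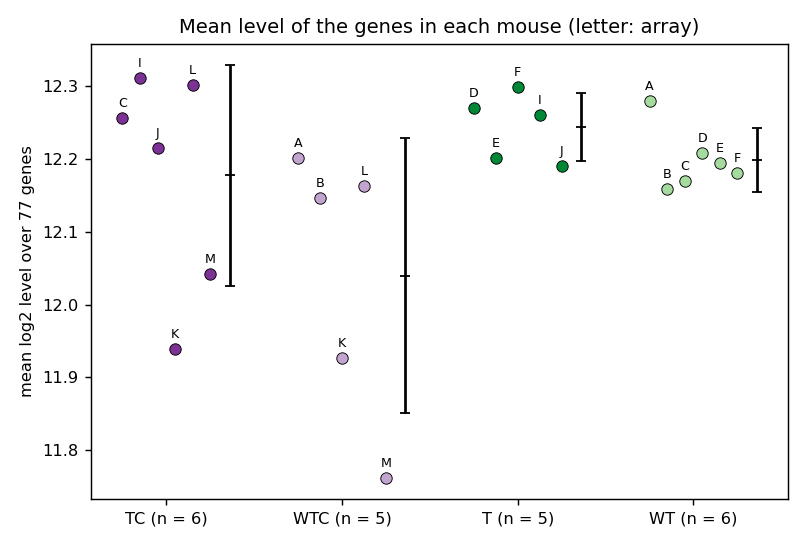
Mean log2 level over the 77 genes (vertical axis) in each mouse, by group, with the letter of its array and the mean and SD of the group as a bar. Of the 22 mice, 4 lie below 12.05, the WTC and TC mice of arrays M and K.

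Averaged over the 77 genes, the level was 12.18 ± 0.15 in TC (SD, n = 6), 12.04 ± 0.19 in WTC (SD, n = 5), 12.24 ± 0.05 in T (SD, n = 5) and 12.20 ± 0.04 in WT mice (SD, n = 6). The mice within the lesioned groups were spread more widely than those of the intact groups. The WTC mice were at 12.20, 12.15, 11.93, 12.16 and 11.76 for arrays A, B, K, L and M, and the TC mice at 11.94 and 12.04 for arrays K and M and 12.21 to 12.31 for the other 4. The T mice lay at 12.19 to 12.30 and the WT mice at 12.16 to 12.28. The 4 lowest mice were thus both mice of array K and both of array M. The TC mice of arrays K and M also had the highest levels among TC mice of cell cycle genes (10.73 and 10.67, the others 7.70 to 9.35), macrophage and neutrophil genes (10.49 and 9.63, the others 7.18 to 8.67) and reactive astrocyte genes (12.18 and 12.11, the others 9.77 to 11.54). The WTC mouse of array M was the highest of the WTC mice in reactive astrocyte (12.43) and cell cycle genes (10.82), while that of array K was at 11.29 and 9.98, within the range of the others. The part of these levels in the low values was not tested.

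Ratios within arrays were uneven too. Dye effects of single genes, which the fits take out, were not removed from them. Each is the lesioned over the intact mouse, or the transgenic over the wild type. The first of these was in Cy3 on arrays B, E, I, K and M and in Cy5 on the others. The part of dye in the differences between arrays was not tested. On array M, where a TC and a WTC mouse were paired, the median ratio of the 77 genes was 0.33 and 65 of 77 lay above 0. On arrays K and L, which paired the same groups, the medians were 0.04 and 0.08, with 44 and 50 of 77 above 0. The median of TC minus WTC was 0.09 without array M and 0.18 without array K, against 0.13 with all arrays and 0.13 within slide 2. Slide 1 gave 0.14, but no array there pairs TC with WTC. That value is reached only through WT mice and rests on 1 TC mouse, that of array C. On the arrays pairing WTC with WT, the median was -0.16 on array A, with 17 of 77 above 0, and 0.00 on array B, with 40 of 77 above 0. On those pairing TC with T it was 0.10 on array I and -0.07 on array J. The arrays pairing T with WT gave 0.01, 0.06 and 0.06. Over all features the medians of the arrays ran from -0.02 to 0.02, and 46.5% to 53.7% of features lay above 0.

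**Figure D4:**
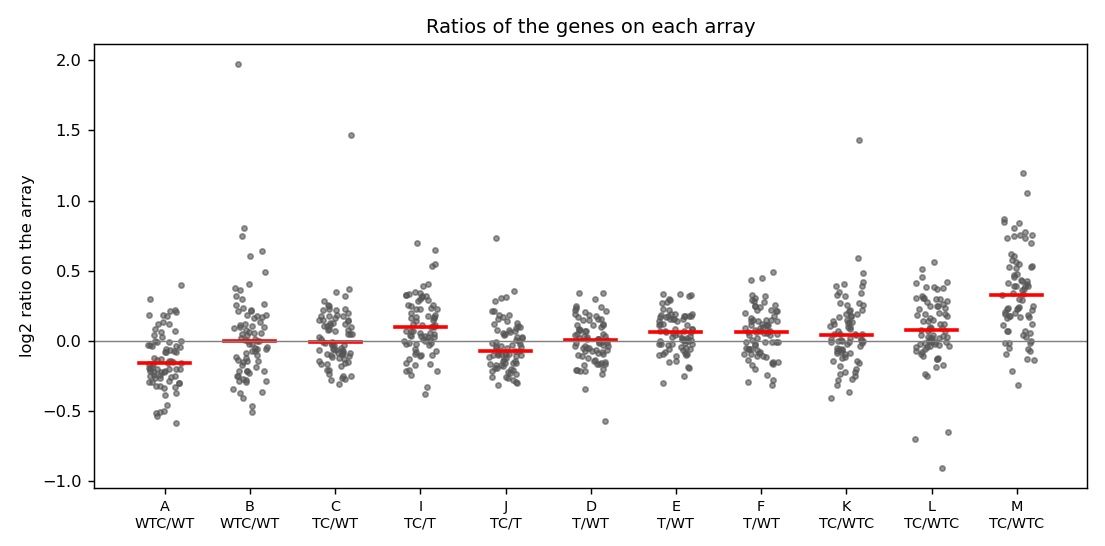
Log2 ratio of each of the 77 genes on each array (points), the first-named group over the second, with the median as a red bar. Dye effects of single genes were not removed, and the first-named group was in Cy3 on arrays B, E, I, K and M. The median is highest on array M, 0.33, and lowest on array A, -0.16.

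Over all 22 mice, with the differences between groups left in, most of the genes varied together. The first principal component of their levels over the 22 mice held 69.4% of the variance and the second 12.1%, and 67 of the 77 genes had the same sign on the first. Mrps6, Mrpl33, Mrpl24, Mrpl52 and Mrps25, the 5 genes that rose in WTC minus WT, had the 5 largest weights of the other sign. Their rise and their weights come from the same mice, so the weights are not a separate result. The share of variance is not given for other genes. The median SD between mice of a group was 0.17, and it was largest for Mrps6 (0.36), Mrpl46 (0.34), Mrpl15 (0.34), Mrps5 (0.31) and Mrps22 (0.31), and smallest for Mrpl17 (0.09).

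Genes that share a role with the 77 were read from lists of mitochondrial translation. In WTC minus WT, 5 subunits of the mitochondrial ribosome with other names (Dap3, Ptcd3, Chchd1, Aurkaip1 and Gadd45gip1) had a median of -0.15 in the separate-channel fit and 0 calls, with all 5 below 0. The shares of all features called in that fit, 14.3% up and 12.2% down, are the background of the counts that follow. Of 24 genes of ribosome assembly and ribosomal RNA modification 0 rose and 10 fell (median -0.17), among them the RNA helicase gene Dhx30 (-0.37 ± 0.08, adjusted p = 0.00393) and the rRNA methyltransferase genes Mrm3 (-0.53 ± 0.15, adjusted p = 0.0159) and Mrm1 (-0.44 ± 0.13, adjusted p = 0.0168). Of 16 translation factors 0 rose and 4 fell, among them the release factor gene Mtrf1 (-0.41 ± 0.10, adjusted p = 0.00852) and the ribosome recycling factor gene Mrrf (-0.68 ± 0.21, adjusted p = 0.0246). Of 17 mitochondrial aminoacyl-tRNA synthetases, which load tRNAs with amino acids, 0 rose and 2 fell, Nars2 and Yars2. Of 19 genes of mitochondrial transcription and RNA processing 3 rose and 4 fell, with the RNA polymerase gene Polrmt at -0.32 ± 0.09 (adjusted p = 0.0153) and Hsd17b10, of the tRNA-processing complex, at 0.32 ± 0.07 (adjusted p = 0.00511). With the slide term, where 9.23% of all features rose and 4% fell, 2 assembly genes (Dhx30 and Mrm1) and 1 translation factor (Mtrf1) fell and Hsd17b10 rose. In the ratio fit 0 genes of any of these lists were called, where 0.023% of all features were.

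The proteins of the cytosolic ribosome, which translates nuclear messages, and of the respiratory chain were read beside these lists. Of 76 cytosolic ribosomal protein genes in the separate-channel fit 27 rose and 1 fell in WTC minus WT (median 0.17), and of 83 nuclear-encoded respiratory chain subunits 1 rose and 23 fell (median -0.22). In the ratio fit 77 of 81 cytosolic ribosomal protein genes lay above 0 in WTC minus WT, 22 of the 77 mitochondrial ones and 23 of 84 respiratory chain genes. In TC minus WTC 25 of 81 cytosolic, 66 of 77 mitochondrial and 69 of 84 respiratory chain genes lay above 0, with 0 calls in the ratio fit for each list. Differences between the lists were not tested.

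**Figure D5:**
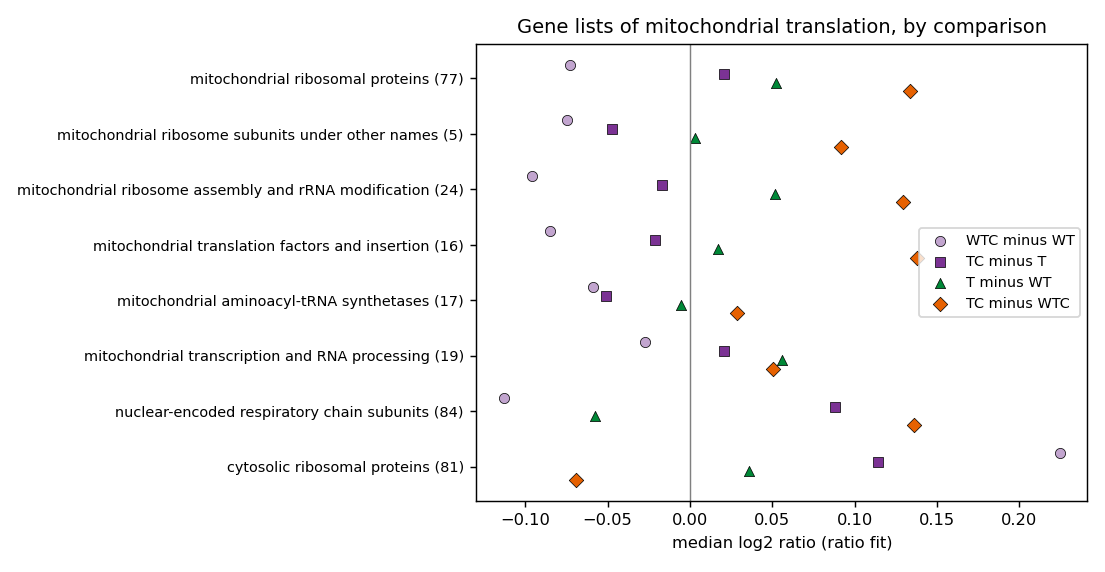
Median log2 ratio of each gene list in the ratio fit (horizontal axis) for 4 comparisons (symbols), with the number of genes in brackets. The 77 genes and the lists of mitochondrial ribosome assembly and translation factors lie below 0 in WTC minus WT and above 0 in TC minus WTC, and the cytosolic ribosomal proteins the other way.

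Medians by promoter motif were taken in the ratio fit. In WTC minus WT the median was -0.07 for the 13 genes with the NRF1 motif and for the 55 without it, and in TC minus WTC it was 0.13 with and 0.14 without. For the 8 genes with the YY1 motif the TC minus WTC median was 0.29, against 0.13 for the 60 without, and the 8 ran from 0.04 for Mrpl35 and 0.06 for Mrpl36 through Mrps24, Mrps18a, Mrps11, Mrps27 and Mrpl42 to 0.40 for Mrpl37. The 2 genes with the CREB motif TGACGTCA had a T minus WT median of 0.05 and a TC minus WTC median of 0.08, against 0.06 and 0.15 for the other 66. No test was made of these medians. Mrps11 and Mrpl46 start 42 bases apart on opposite strands of chromosome 7 in overlapping promoter windows. In TC minus WTC they gave 0.32 ± 0.11 and 0.46 ± 0.12, and in WTC minus WT -0.10 and -0.25 in the ratio fit.

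The authors' deposited table holds 3 of these comparisons, WTC minus WT, TC minus T and TC minus WTC. For WTC minus WT the authors' deposited table calls 3 of the 77 genes up and 34 down, against 14.4% and 21.7% of all features, with a median of -0.25 against -0.09. Of the 16 genes called in the separate-channel fit, 14 are called in the authors' deposited table in the same direction. For TC minus T the authors' deposited table calls 1 gene up and 0 down, against 2.4% and 0.502% of all features. For TC minus WTC the authors' deposited table calls 24 genes up and 0 down, against 10.4% and 6.17% of all features, with a median of 0.26 against 0.04. Across features, the authors' log2 ratios correlate with those of the ratio fit at r = 0.87, 0.89 and 0.87 for the 3 comparisons, a description over features that share the same arrays. The 24 calls of the authors' deposited table for TC minus WTC passed neither in the ratio fit nor in the separate-channel fit with or without the slide term, where the smallest adjusted p was 0.0882.

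Of the 77 genes 21 had 2 passing probes. In the pairwise comparisons, the 2 probes of a gene pointed in opposite directions with ratios over 0.1 in size for 3 genes. Each did so in WTC minus WT: Mrpl15 (-0.22 for the brighter probe and 0.64 for the other), Mrps14 (0.12 and -0.12) and Mrps25 (0.15 and -0.13). The difference of lesion effects was not among the comparisons read by probe, and the 2 probes of Mrpl15 have opposite signs there too. The values given above are those of the brighter probe.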

How the data were processed

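Cortex RNA of 22 mice was hybridised to 11 Agilent 2-colour arrays. Per the file headers, Feature Extraction 10.7.3.1 made the deposited median signal intensities of spot and background, and the deposited log10 ratios of the processed dye signals, which served as an alternative. The authors' deposited table, made with limma per the submitters' processing notes, gives log2 ratios and adjusted p-values.

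From the intensities, background was corrected by normexp (offset 50) and arrays were normalised by loess in limma 3.58.1 (R 4.3.3). Control spots were left out. A probe was kept if above background by the scanner software's test in 5 or more of the 22 channels (35552 of 55681 probes), and 1 probe, the brightest, was used for each gene. The ratio fit had a dye term and 7 residual degrees of freedom, and the separate-channel fit, after Aquantile normalisation, 17 with an intraspot correlation of 0.318. Levels per mouse had the dye effect removed. Groups came from the titles, and Cy3 labels on arrays I, J and K that disagree with them were tried as an alternative, whose values stand in the text. P-values measure the spread left by each fit. Each mouse was hybridised once, so differences between mice and those of labelling or hybridisation cannot be told apart in it. Both fits were run on simulated data with independent noise of equal size in every channel. Slides, correlation within spots and arrays of unequal quality were not simulated, so that run does not cover these features of the data. Members and gene lists were chosen with earlier results of these data known. Genes named were those with the smallest p-values, the highest and lowest ratios, 8 fixed members, and members whose probes disagreed.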

Additional observations from a re-analysis of the deposited data

Results flagged for a closer look

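Of 92 sets of mice tested for a mouse far from the others of its group, 3 held one, and chance gives about 1 in 20. The level of Mrps18b in the TC mouse of array K was 12.42, and the remaining TC mice lay at 12.70 to 12.82. The level of Mrpl13 in the WT mouse of array A was 13.64, against 13.26 to 13.40 in the other WT mice, and that of Mrps12 in the WT mouse of array F was 14.33, against 14.11 to 14.19.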

How the results depend on the processing

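The number of the 77 genes called in WTC minus WT was 0 in the ratio fit, 14 with array weights, 16 in the separate-channel fit, 7 with its slide term, and 2 both without arrays I, J and K and within slide 1. No share of all features is given for this count of 2. Leaving out 1 array gave 0 to 3 in the ratio fit and 7 to 26 in the separate-channel fit. In the latter it was 10 without array D, E or M, where 20.3%, 18.3% and 19.3% of all features were called. It was 12 without F or L (20.7% and 19.9% of all features) and 13 without C (20.8%). It was 14 without J (23.4%), 17 without K (26.8%) and 20 without I (30.7%). For TC minus T the number called was 2 with array weights, where 7.6% of all features were called. It was 3 in the separate-channel fit, 2 with the slide term, and 1 to 5 in the separate-channel fit without 1 array. For TC minus WTC it was 5 with array weights and 0 to 3 in the separate-channel fit without 1 array. Median centring moved the median to -0.30 in WTC minus WT, 0.39 in TC minus WTC and 0.29 in the difference of lesion effects. No values of all features under that centring are given beside these. The ratio of Mrps25 in WTC minus WT turned to -0.0841 with median centring and ran from -0.0467 without array B to 0.247 without array A, and that of Mrpl36 in T minus WT to -1e-04 and -0.0128 in the separate-channel fit without arrays B and D. With the Cy3 labels 0 genes were called and Mrps6 in TC minus T was 0.64. The causes were not tested. Values within a slide, and those of the separate-channel fit without 1 array, were added after seeing the data. Of the 25 named ratios followed through the alternatives, no other changed sign. The ratio fit compares the 2 mice of each array within it. Beyond that, no paired analysis was possible because replicate numbers were given in accession order and tie no mice together across arrays. Levels near background limit dim probes, though each of the 77 genes was well above background in every channel.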
